A study of Mus musculus and Homo sapiens with 24 samples.

Results

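Estradiol acts on a cell through a small set of receptors, and this report describes the mRNA of those receptors and of genes known to respond to them in HepG2, an established human hepatoma cell line. The set held 10 of the 28278 genes in the HepG2 count table, taken by symbol alone: 4 receptors (ESR1, ESR2, GPER1 and ESRRA) and 6 genes known as estrogen targets in breast cells (GREB1, TFF1, PGR, NRIP1, CTSD and CCDC170). HepG2 cells were left untreated (Ctrl), or treated for 4 h with 50 µM CoCl2, with 25 nM 17β-estradiol (Estrogen), or with both (CoCl2-Estrogen), and 3 libraries labelled A, B and C were sequenced from each of the 4 groups. CoCl2 stabilises the hypoxia-inducible factor HIF1A and is used to mimic low oxygen. All 4 groups were unmodified HepG2 cells grown in EMEM with fetal bovine serum. The cell line methods describe a night without serum before treatment, whereas the labels of these libraries name only growth with serum and a wash, so the serum state during treatment is uncertain. The study asked how estrogen and a hypoxia-like state, alone and together, change gene expression in hepatocytes. Nothing in the labels says whether A, B and C were separate cultures, so the p-values below measure the spread between these libraries, which may be technical.

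Estradiol binds estrogen receptor alpha (ESR1) and beta (ESR2), nuclear receptors that bind estrogen response elements in DNA and recruit coactivators or corepressors to nearby genes. GPER1 is a membrane G protein-coupled receptor that signals rapidly in response to estrogen. ESRRA, the estrogen-related receptor alpha, resembles ESR1 in sequence but is an orphan receptor that does not need estradiol and that drives mitochondrial and energy metabolism genes together with the coactivator PPARGC1A. In breast cancer cells GREB1, TFF1, PGR and CTSD are textbook genes that ESR1 switches on, NRIP1 encodes a corepressor that both responds to and restrains the receptor, and CCDC170 lies next to ESR1 on the chromosome. In hepatocytes, ESR1 is the main nuclear estrogen receptor, and oral estrogens are known to change the liver's output of plasma proteins.

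The libraries held between 13592637 and 21701480 counts, and libraries of a group correlated with each other at Pearson r between 0.974 and 0.993 over all genes. Levels are given as the estimated read count of each library and as CPM, the reads of a gene relative to the library total, scaled between libraries by the trimmed mean of M values (TMM). CPM takes no account of transcript length, so levels are compared between groups and not between genes. Differences are log2 fold changes from edgeR's quasi-likelihood test, fitted to all genes that had more than 5 counts in at least 1 library of the comparison, and a gene is called where its Benjamini-Hochberg adjusted p was at most 0.05 over all those genes. Estradiol moved a large part of the HepG2 transcriptome, so counts of called genes are set beside the share of all tested genes that was called. The share of all genes whose libraries separated between groups without overlap was not counted. Such separation, where given below, describes each gene and is not shown to be unusual. The liver identity of the cells was checked with 10 hepatocyte markers, and all 10 were above 1 CPM on average in each group. Their summed level nevertheless fell with estradiol, from 28324 to 30853 CPM in the Ctrl libraries and 30781 to 32501 CPM with CoCl2, to 15824 to 17154 CPM with estradiol and 17175 to 18008 CPM with both. Of 10 markers of other cell types, 6 were at 0 in all 3 Ctrl libraries and 5 in all 3 estradiol libraries, and the summed level of the list ran from 133 to 139 CPM in Ctrl, 134 to 137 CPM with CoCl2, 149 to 156 CPM with estradiol and 154 to 166 CPM with both. That sum rests on few genes, since 1 marker averaged above 1 CPM in Ctrl and with CoCl2, and 2 with estradiol and with both. Of the 4 that could be tested under estradiol alone, 2 were called higher and 1 lower. The part of these shifts in the results below was not tested, and in bulk RNA fewer cells of a kind cannot be told apart from less RNA per cell.

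Under estradiol alone, 6 of the 9 genes of the set that could be tested were called: ESR1, ESRRA and NRIP1 rose, and GREB1, CTSD and CCDC170 fell. Over all genes, 68.9% were called, 34.7% higher and 34.2% lower, so the share of called genes in the set was close to that of the whole transcriptome. ESR2, GPER1 and TFF1 did not pass the test, and PGR had too few reads to be tested. Of the 4 genes of the set best known to be switched on by ESR1 in breast cells, GREB1 and CTSD were called lower. The other 2, TFF1 and PGR, had too few reads to show whether they rose, and PGR had 5 reads with estradiol against 1 in Ctrl.

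ESR1, the gene of estrogen receptor alpha, was barely detected in untreated HepG2 cells, with 2, 4 and 5 reads in the 3 Ctrl libraries. With CoCl2 it had 9, 7 and 11 reads, with estradiol 54, 49 and 74, and with both treatments 29, 38 and 22. Every estradiol-treated library was above every library without estradiol, and the Estrogen libraries did not overlap those given both treatments. In CPM the means were 0.192 ± 0.0947 in Ctrl, 0.500 ± 0.019 with CoCl2, 3.90 ± 1.10 with estradiol and 1.91 ± 0.396 with both (SD, n = 3 each). Estradiol alone raised ESR1 by 4.30 log2 units (SE 0.39, 95% interval 3.46 to 5.13, adjusted p = 1.06e-07, edgeR quasi-likelihood test). The ratio of the summed reads, scaled to library size, was 20.4 with a 95% Poisson interval of 11.1 to 41.6, which covers counting error only. ESR1 passed the filter on low counts only because of its treated libraries, since no Ctrl library held more than 5 reads.

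The genes around ESR1 were examined after its values were seen, and their order on the chromosome is from general knowledge, since no human annotation was used here. SYNE1, which encodes a large nuclear envelope protein and lies just downstream of ESR1 on the opposite strand, went from 742, 915 and 718 reads in Ctrl to 11071, 9561 and 10953 with estradiol. Its level rose from 40.6 ± 2.0 to 690 ± 68.2 CPM (SD, n = 3), by 4.07 log2 units (SE 0.08, adjusted p = 1.71e-14). The SYNE1 rise was thus nearly as large in fold as that of ESR1, on a far higher number of reads.

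Because the strand setting of the counting was not given in the sources used here, reads of SYNE1 and of a gene on the other strand cannot be told apart with certainty, and the ESR1 count was set against that of SYNE1 in each library. ESR1 had 2.695, 4.37 and 6.96 reads per 1000 SYNE1 reads in the Ctrl libraries, and 4.88, 5.12 and 6.76 in the estradiol libraries, so these ranges overlapped. With both treatments the values were 4.10, 4.22 and 2.896, all within the range of Ctrl. In the CoCl2 libraries, where SYNE1 stayed at 38.9 ± 1.3 CPM, they were 12.9, 13.1 and 12.486, above every other library. The part of SYNE1 reads in the ESR1 counts was not tested.

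On the other side of ESR1, CCDC170, a coiled-coil protein gene, moved the opposite way. It had 84, 95 and 86 reads in Ctrl, 76, 66 and 137 with CoCl2, 1, 3 and 0 with estradiol, and 11, 5 and 2 with both. No estradiol-treated library came near any library without estradiol. The fitted change under estradiol was -5.61 (SE 0.43, adjusted p = 1.72e-08). CCDC170 passed the filter on low counts only through its Ctrl libraries in this comparison, where it was high. By summed reads CCDC170 was 52.2 times lower (95% Poisson interval 20.2 to 193), which rests on 4 reads in the 3 estradiol libraries. In CPM it fell from 4.56 ± 0.397 to 0.0903 ± 0.111 (SD, n = 3).

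The remaining neighbours showed no common direction. Beyond CCDC170, ARMT1 and RMND1 had changes of 0.02 (adjusted p = 0.824) and -0.04 (adjusted p = 0.663) under estradiol, neither of which passed the test. ZBTB2 fell by 0.48 (adjusted p = 1.99e-05), and AKAP12, a scaffold protein gene, rose by 1.65 (adjusted p = 3.75e-11). In the plot of the region, the 2 largest rises and the single large fall were in the adjoining genes ESR1, SYNE1 and CCDC170. Changes of this kind were common, since 29.3% of all tested genes were called at more than 2-fold under estradiol.

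**Figure D1:**
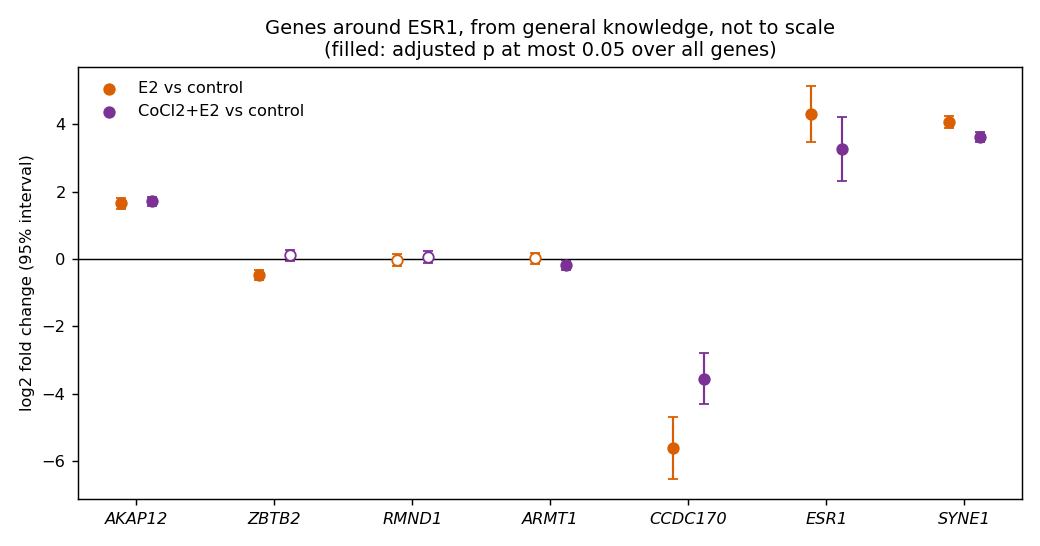
Log2 fold change against control (y axis) of 7 genes placed along the x axis in the order AKAP12, ZBTB2, RMND1, ARMT1, CCDC170, ESR1 and SYNE1, taken from general knowledge and not to scale. Points are edgeR estimates with 95% intervals for estradiol (E2, orange) and CoCl2 with estradiol (purple), 3 libraries against 3, filled where called; CCDC170 sits at -5.61 and -3.55, ESR1 at 4.30 and 3.27, and SYNE1 at 4.07 and 3.62.

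ESR2, the gene of estrogen receptor beta, was near the limit of detection in every group. It had 10, 2 and 5 reads in Ctrl, 1, 2 and 8 with CoCl2, 2, 5 and 0 with estradiol, and 9, 5 and 2 with both, and all 4 ranges overlapped. The estradiol change was -0.93 (95% interval -2.92 to 1.06, adjusted p = 0.389), an interval that holds both a large fall and no change, so no difference was detectable at this depth.

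GPER1, the membrane receptor, was well covered, with 455 to 845 reads a library. Its levels were 29.96, 34.5 and 37.8 CPM in Ctrl, 36.96, 33.9 and 37.95 with CoCl2, 28.8, 34.4 and 34.9 with estradiol, and 47.96, 46.0 and 41.3 with both. Only the libraries given both treatments stood above all others, and the other 3 groups overlapped. Estradiol alone gave -0.08 (95% interval -0.29 to 0.13, adjusted p = 0.505) and CoCl2 alone 0.10 (95% interval -0.10 to 0.29, adjusted p = 0.725). With both, GPER1 was 0.38 above Ctrl (SE 0.09, adjusted p = 0.00201). C7orf50, the gene in which GPER1 is nested, fell by 0.96 under estradiol (adjusted p = 2.36e-07).

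ESRRA was the receptor with the clearest rise on a firm number of reads. Its levels were 21.1, 22.8 and 23.8 CPM in Ctrl, 22.8, 15.6 and 16.4 with CoCl2, 60.3, 63.0 and 49.99 with estradiol, and 50.4, 51.4 and 47.2 with both. The 6 estradiol-treated libraries were all above the 6 others. Estradiol alone raised it by 1.34 (SE 0.09, adjusted p = 3.39e-09), from 22.6 ± 1.36 to 57.8 ± 6.85 CPM (SD, n = 3). All 12 ESRRA counts were not whole numbers, so some of its reads were shared out between features and its level is uncertain to that extent. Its neighbours TRMT112 and PRDX5 changed by -0.54 and -0.58.

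**Figure D2:**
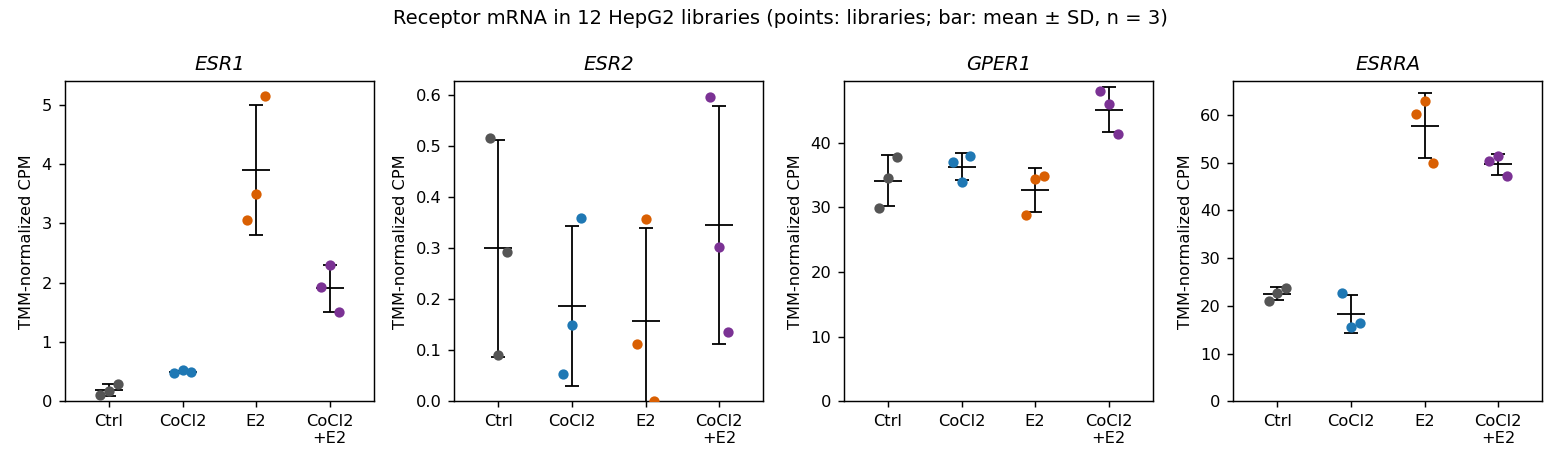
TMM-normalized CPM (y axis, linear, from 0) of the 4 receptor genes in the 4 groups (x axis; E2 is estradiol), with 1 point a library and bars for the mean ± SD (n = 3). ESR1 and ESRRA are higher in all 6 estradiol-treated libraries, GPER1 is higher only with both treatments, and the ESR2 groups overlap.

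Among the target genes, GREB1, an ESR1 cofactor that is among the most strongly induced estrogen targets in breast cells, fell. Its levels were 186, 199 and 191 CPM in Ctrl, 202, 173 and 184 with CoCl2, 125, 133 and 123 with estradiol, and 127, 137 and 131 with both. The estradiol-treated libraries were all below the libraries without estradiol. The change under estradiol alone was -0.61 (SE 0.06, 95% interval -0.75 to -0.48, adjusted p = 4.06e-07), from 192 ± 6.77 to 127 ± 5.04 CPM (SD, n = 3).

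CTSD encodes the lysosomal protease cathepsin D, which breast cancer cells make more of under estrogen. In HepG2 its levels were 179, 169 and 209 CPM in Ctrl, 222, 166 and 198 with CoCl2, 145, 148 and 126 with estradiol, and 138, 154 and 130 with both, and again no estradiol-treated library reached the lowest library without estradiol. It fell by 0.42 on the log2 scale under estradiol alone (SE 0.08, adjusted p = 0.000243). Its neighbour IFITM10 rose by 3.27 (adjusted p = 3.97e-05) on few reads, with 3, 7 and 1 in Ctrl and 38, 33 and 16 with estradiol.

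NRIP1, the receptor-interacting corepressor also called RIP140, was the 1 target gene of the set called higher under estradiol alone. Its levels were 269, 282 and 245 CPM in Ctrl, 234, 223 and 244 with CoCl2, 367, 366 and 384 with estradiol, and 272, 278 and 298 with both. The estradiol libraries stood above all 9 others, whereas those given both treatments overlapped Ctrl. Estradiol alone raised it by 0.47 (SE 0.07, adjusted p = 1.17e-05).

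TFF1 (pS2), a secreted trefoil peptide, and PGR, the progesterone receptor, are the standard markers of ESR1 activity in breast cells, and both were at or near 0 in HepG2. TFF1 had 6, 8 and 2 reads in Ctrl, 5, 2 and 5 with CoCl2, 3, 4 and 7 with estradiol, and 1, 3 and 1 with both. The estradiol change was 0.16 (95% interval -1.31 to 1.64, adjusted p = 0.847), so neither a rise nor a fall was detectable at this depth. PGR had 1, 0 and 0 reads in Ctrl, none in the 3 CoCl2 libraries, 0, 4 and 1 with estradiol, and 3, 4 and 2 with both, 15 reads in all. It never passed the filter, and its summed-read ratio to Ctrl was 6.34 (95% Poisson interval 0.71 to 300) with estradiol and 11.4 (1.58 to 498) with both, intervals that cover counting error only.

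**Figure D3:**
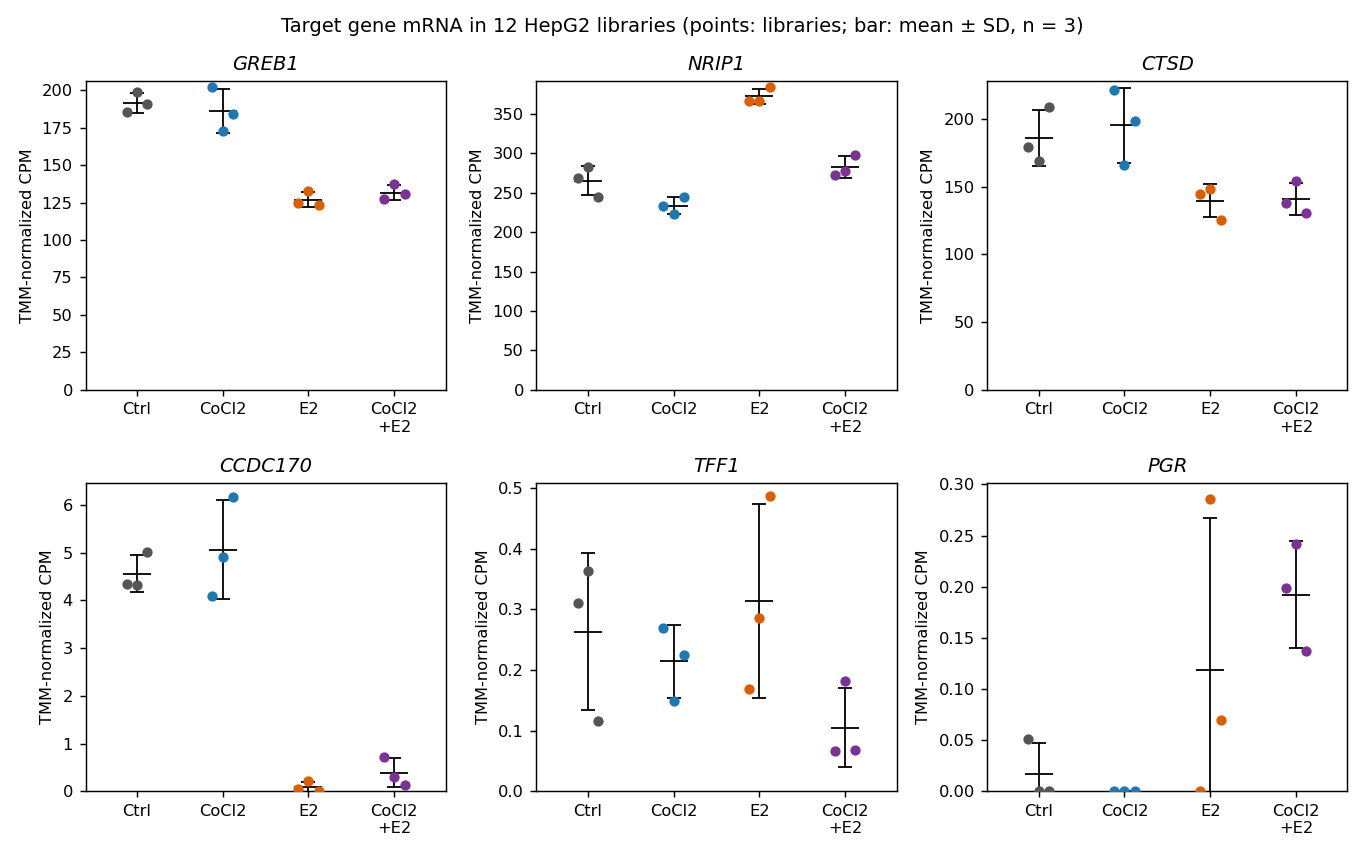
TMM-normalized CPM (y axis, linear, from 0) of the 6 target genes in the 4 groups (x axis; E2 is estradiol), with 1 point a library and bars for the mean ± SD (n = 3). GREB1, CTSD and CCDC170 are lower in all 6 estradiol-treated libraries, NRIP1 is highest with estradiol alone, and TFF1 and PGR stay under 0.5 CPM throughout.

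CoCl2 alone called 0 of the 9 tested genes of the set, where 1.44% of all genes were called, and DESeq2 also called 0. At an unadjusted p under 0.05 by edgeR's quasi-likelihood test there were 3, beside 1789 of all 15872 tested genes. ESR1 was 1.37 higher (SE 0.57, unadjusted p = 0.0341, adjusted p = 0.399), with 27 reads against 11 in ranges that did not overlap. In this comparison it passed the filter on low counts only through its CoCl2 libraries, where it was higher. NRIP1 was at -0.18 (unadjusted p = 0.0284, adjusted p = 0.373), also without overlap. ESRRA was at -0.30 (unadjusted p = 0.0440, adjusted p = 0.426), and without the CoCl2 A library, the highest of its group, the value was -0.49 with an adjusted p of 0.0466. For GREB1 and CTSD the intervals were narrow and included 0, at -0.19 to 0.12 and -0.15 to 0.31, and for CCDC170 the interval was -0.25 to 0.57.

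With both treatments against Ctrl, 6 of 9 genes were called, as 65.4% of all genes were, 32.3% higher and 33.2% lower. ESR1 (3.27, SE 0.45, adjusted p = 1.48e-05), ESRRA (1.11, adjusted p = 1.45e-08) and GPER1 rose, and GREB1 (-0.57, adjusted p = 1.19e-06), CTSD (-0.43, adjusted p = 0.000353) and CCDC170 (-3.55, adjusted p = 5.24e-07) fell. NRIP1 did not pass (0.06, 95% interval -0.08 to 0.21, adjusted p = 0.431).

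Against CoCl2 alone, the addition of estradiol called 7 of 8 tested genes, beside 60.9% of all genes, of which 30.1% were higher and 30.8% lower. ESR1 rose by 1.91 (adjusted p = 0.000556), ESRRA by 1.42 (adjusted p = 3.91e-07), GPER1 by 0.30 (adjusted p = 0.00924) and NRIP1 by 0.26 (adjusted p = 0.00443). GREB1 fell by 0.51 (adjusted p = 5.81e-05), CTSD by 0.49 (adjusted p = 0.00105) and CCDC170 by 3.70 (adjusted p = 2.80e-06). These comparisons share libraries with those above and are not independent of them.

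**Figure D4:**
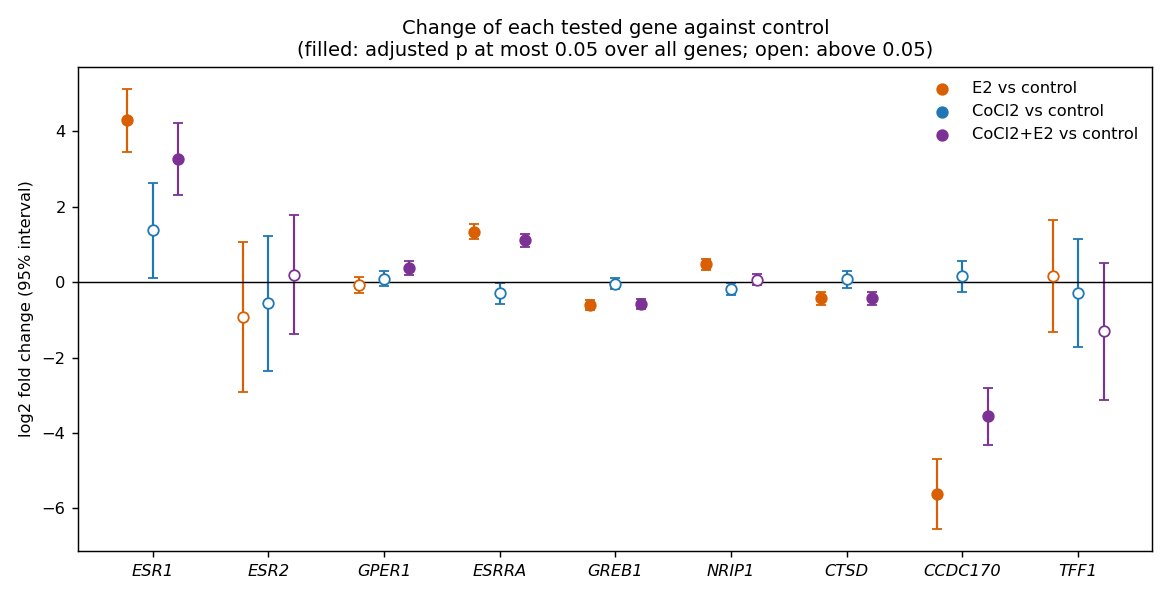
Log2 fold change against control (y axis) of the 9 tested genes (x axis) under estradiol (E2, orange), CoCl2 (blue) and both (purple), as edgeR estimates with 95% intervals from 3 libraries against 3, filled where called. All CoCl2 points are open, and the ESR2 and TFF1 intervals span more than 2 log2 units.

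Adding CoCl2 to estradiol lowered 2 of the genes that estradiol had raised. Against estradiol alone 3 of 9 genes were called, beside 17% of all genes. NRIP1 fell by 0.37 (SE 0.05, adjusted p = 0.000126), which brought it to 283 ± 13.5 CPM against 372 ± 9.89 CPM with estradiol alone and 265 ± 18.9 CPM in Ctrl (SD, n = 3). ESR1 was 0.98 lower (SE 0.26, adjusted p = 0.0124), and SYNE1 0.40 lower (adjusted p = 0.000694). The ESR1 call was lost without the Estrogen C library, the highest of its group (-0.74, adjusted p = 0.0742), and without CoCl2-Estrogen C (-0.84, adjusted p = 0.0552). ESRRA, also raised by estradiol, was at -0.19 and did not pass (adjusted p = 0.141, edgeR quasi-likelihood test). Without Estrogen C the ESRRA value was -0.28 and passed (adjusted p = 0.0190, same test). GPER1 was 0.50 higher (adjusted p = 0.000735). CCDC170 had 18 reads against 4, a change of 2.09 that did not pass (adjusted p = 0.160).

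Whether the estradiol effect itself differed with and without CoCl2 was tested with an interaction term over all 12 libraries, which called 1 of 9 genes of the set beside 5.8% of all genes (350 higher and 617 lower, or 520 and 488 when libraries were scaled by their totals alone). That gene was ESR1, whose estradiol effect was 2.36 log2 units smaller in the presence of CoCl2 (SE 0.55, adjusted p = 0.0149). Without the Ctrl A library, which held 2 ESR1 reads, the value was -2.08 and no longer passed (adjusted p = 0.0541). For SYNE1 the interaction was -0.35 (adjusted p = 0.0869). NRIP1 (-0.19, adjusted p = 0.344), GPER1 (0.40, adjusted p = 0.139) and CCDC170 (1.94, adjusted p = 0.205) did not pass, so a difference between their estradiol effects was not shown.

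A longer list of 45 estrogen receptor target genes known from breast cells, which includes 6 genes of the set, moved in both directions under estradiol. Of 38 tested, 17 rose and 12 fell (76.3% called against 68.9% of all genes), with a median change of 0.18 against -0.004 over all genes. Leaving out the genes described above, 16 of 33 rose and 9 fell. AREG, an EGF receptor ligand, rose by 2.89 (adjusted p = 1.44e-13), from 70.1 ± 7.71 to 525 ± 13.3 CPM (SD, n = 3). STC2, a secreted glycoprotein gene that also responds to hypoxia, rose by 2.01 (adjusted p = 7.32e-13), and the early-response transcription factor EGR3 by 2.51 (adjusted p = 2.89e-06) on 41 to 56 reads. The scaffold protein gene PDZK1 fell by 2.16 (adjusted p = 7.68e-11), the fatty acid transporter gene SLC27A2 by 1.05 (adjusted p = 5.47e-07) and XBP1, a transcription factor of the secretory pathway, by 0.73 (adjusted p = 2.47e-08).

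CoCl2 alone called 2 of these 38 target genes, both higher, beside 1.44% of all genes: STC2 (1.10, adjusted p = 1.40e-05) and FHL2 (0.45, adjusted p = 0.0209). The count was 1 when libraries were scaled by their totals alone and without Ctrl A, B or C, CoCl2 A or CoCl2 C, and in each of these it was FHL2 that was lost (adjusted p up to 0.123). With both treatments 16 rose and 13 fell against Ctrl, beside 32.3% and 33.2% of all genes. The interaction called 5 of 38 beside 5.8% of all genes, and among them the estradiol effect was smaller with CoCl2 for STC2 (-1.30, adjusted p = 7.59e-08), AREG (-0.69, adjusted p = 0.00466), TIPARP (-0.53, adjusted p = 0.00732) and FHL2 (-0.44, adjusted p = 0.0357), and larger for the chaperone gene FKBP4 (0.39, adjusted p = 0.0296). The count was 3 without Ctrl A, Ctrl C, Estrogen A or CoCl2-Estrogen B, where FHL2 (adjusted p up to 0.0867) and FKBP4 (adjusted p up to 0.0811) were lost. Over all 19 refits of the interaction, FHL2 lost its call in 9 and FKBP4 in 8.

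Coregulators, the proteins through which estrogen receptors act on transcription, changed both ways as well: of 36 tested, 18 rose and 12 fell under estradiol (83.3% called, against 68.9% of all genes), with a median of 0.18. The coactivator PPARGC1A, which also partners ESRRA, rose by 1.65 (adjusted p = 2.55e-10), from 36.0 ± 4.37 to 115 ± 7.35 CPM (SD, n = 3). The histone acetyltransferase gene CREBBP rose by 1.38 (adjusted p = 5.15e-11). TRIM24 fell by 0.98 (adjusted p = 2.90e-09), and FOXA1, the pioneer factor that opens chromatin for ESR1 in breast cells, fell by 0.68 (adjusted p = 6.74e-08).

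Although ESRRA and PPARGC1A both rose, known ESRRA targets changed in both directions. Of 30 tested, including ESRRA itself, 12 rose and 8 fell (66.7% called, close to the 68.9% of all genes), with a median of 0.07. The pyruvate dehydrogenase kinase gene PDK4 rose by 3.78 (adjusted p = 7.20e-06) on 19 to 46 reads against 1 to 5, having passed the filter only through its estradiol libraries, and the angiogenic factor gene VEGFA by 2.69 (adjusted p = 5.46e-14). The malate dehydrogenase gene MDH1 fell by 1.30 (adjusted p = 3.43e-10) and the fumarase gene FH by 1.01. VEGFA was also raised by CoCl2 alone (0.98, adjusted p = 4.92e-05), and its interaction was -1.12 (adjusted p = 1.02e-06).

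Genes that make, inactivate or carry estradiol held the largest rise of these lists. Of 29 tested, 8 rose and 13 fell (72.4% called, close to the 68.9% of all genes), with a median of -0.35. The estradiol hydroxylase genes CYP1B1 and CYP1A1, textbook targets of the aryl hydrocarbon receptor, rose by 7.01 (adjusted p = 1.27e-11) and 4.80 (adjusted p = 9.56e-16). CYP1B1 went from 6, 3 and 0 reads to 337, 313 and 311, and CYP1A1 from 36.2 ± 1.85 to 1024 ± 50.8 CPM (SD, n = 3). HSD17B2, whose enzyme oxidises estradiol to estrone, rose by 2.13 (adjusted p = 1.38e-11), whereas the sulfotransferase genes SULT2A1 and SULT1A1 fell by 2.36 (adjusted p = 1.40e-10) and 2.53. UGT1A1 rose by 4.55 (adjusted p = 6.67e-11, edgeR quasi-likelihood test). UGT1A1, which shares exons with the other UGT1A genes, and SULT1A1, which has near-identical copies, are uncertain for that reason. CYP1A1 was raised by CoCl2 alone too (1.26, adjusted p = 4.03e-05), and its estradiol effect was 1.53 smaller with CoCl2 (adjusted p = 4.35e-07).

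Liver genes for plasma proteins known to respond to estrogen fell for the most part: of 22 tested, 17 fell and 3 rose (90.9% called, against 68.9% of all genes, 34.2% lower), with a median of -0.99. The hormone carriers fell, SERPINA6 (corticosteroid-binding globulin) by 2.50 (adjusted p = 8.04e-12) and SERPINA7 (thyroxine-binding globulin) by 2.13 (adjusted p = 1.17e-11). The iron hormone gene HAMP had 87, 90 and 116 reads in Ctrl and 0, 1 and 2 with estradiol. It passed the filter on low counts in this comparison only through its Ctrl libraries, where it was high. The hepatocyte markers also fell: all 10 were called lower, with a median of -1.05, and their part in it was not tested. The 2 lists are not independent, since TF, FGB, APOA1, APOB and TTR are in both.

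**Figure D5:**
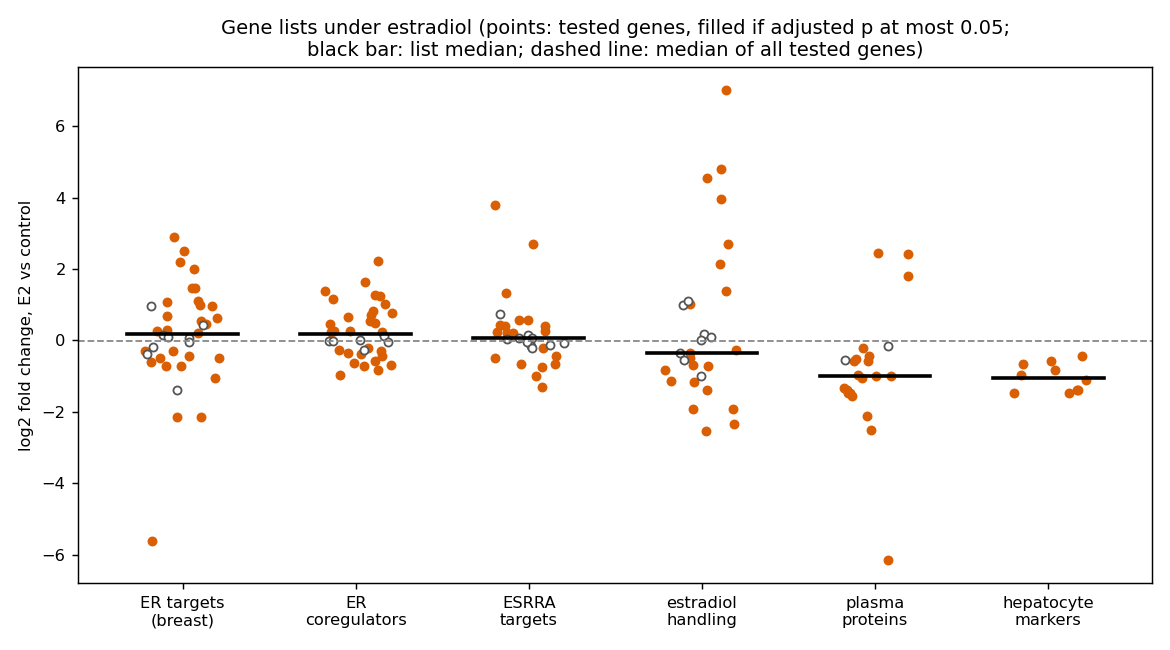
Log2 fold change under estradiol against control (y axis) for the tested genes of 6 gene lists (x axis), as edgeR estimates from 3 libraries against 3, with 1 point a gene, filled where called, a black bar for the list median and a dashed line for the median of all genes. ER targets, coregulators and ESRRA targets lie on both sides of 0, with medians of 0.18, 0.18 and 0.07, and the plasma protein and hepatocyte lists lie mostly below it, with medians of -0.99 and -1.05. The plasma protein and hepatocyte lists share genes.

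The genes of the set also differed in which other genes they followed across the 12 libraries. These likenesses are Pearson r of log2 CPM over genes averaging at least 1 CPM, and, since the libraries fall into the same 4 groups for every gene, they describe the group pattern and carry no test. ESR1 was most like TRIM56 (r = 0.986), CFLAR (0.984) and NR5A2 (0.984), the last a liver nuclear receptor that went from 7.22 ± 1.47 CPM in Ctrl to 9.24 ± 0.808 with CoCl2, 23.2 ± 1.89 with estradiol and 15.9 ± 1.49 with both (SD, n = 3). ESRRA was most like ZNF787 (0.994), GREB1 like GTF2H5 (0.993), NRIP1 like RHOU (0.980), CTSD like PGAM4 (0.977) and CCDC170 like CDK16 (0.992). The closest gene to GPER1, C17orf100, reached only 0.882.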

How the data were processed

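RNA from HepG2 cells was sequenced as stranded total RNA after ribosomal RNA removal. The deposited values are unscaled estimated counts for each gene, which the authors made in Partek Flow; the submitters' processing notes name STAR 2.7.8a, Bowtie2 2.2.5 and the builds hg38 and mm10 without assigning them to libraries, and the strand setting is not given in the sources used here. Of the deposited estimated counts, 23.8% were not whole and were rounded. Groups came from the sample labels.

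Counts were tested with edgeR 4.0.16 (quasi-likelihood, TMM scaling, R 4.3.3) in pairwise fits of 6 libraries and, for the interaction, in 1 fit of 12, on genes with more than 5 counts in at least 1 library, with Benjamini-Hochberg adjustment over all tested genes. A prior count of 2 was used for log2 CPM. Standard errors are the log2 fold change over the root of F. Poisson intervals of summed reads are exact. Scripts were tested on simulated data. The set and the gene lists were chosen with earlier results of these data known, and the list of neighbours after the values were seen. Besides the set, the text draws on the 4 largest rises and falls of each list under estradiol among called genes averaging at least 1 CPM, the 3 genes most like each of the set, neighbouring genes, and list genes called under CoCl2 alone or in the interaction, which were picked after their values were seen. DESeq2 1.42.0, other scalings and filters, 1 fit of all libraries, a replicate block and leaving out each library were tried. No human sequence, coordinate or transcript length was used here, and the mouse libraries of the series were not analysed here. A further list gene that this rule names is not reported here.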

Additional observations from a re-analysis of the deposited data

Results flagged for a closer look

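The estradiol effect on ESR1 differed between cells without and with CoCl2, by a tested interaction of -2.36 log2 units (adjusted p = 0.0149, edgeR quasi-likelihood test). The pairwise fits gave 4.30 without CoCl2 and 1.91 with it, and the reference groups held 11 and 27 ESR1 reads in all. Without the Ctrl A library the interaction was -2.08 and did not pass (adjusted p = 0.0541). The part of reads from SYNE1, which rose with ESR1, was not tested.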

How the results depend on the processing

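Of 770 refits of the genes of the set under another tool, scaling, filter, fit or choice of libraries, 746 kept their direction and side of the threshold, 3 lost a call, 3 gained one and 18 changed sign, and none of the sign changes touched a called gene. CoCl2 against Ctrl called 229 genes, 345 by DESeq2 and 359 in 1 fit of all 12 libraries; leaving out 1 library gave 136 to 249, with 136 without Ctrl A, 147 without Ctrl B and 140 without CoCl2 C, and 0 to 1 genes of the set. Both treatments against estradiol called 2706 genes, and 1671 to 2493 without 1 library, the fewest without Estrogen A; the interaction called 0 to 1 genes of the set. Scaling by library totals alone moved the median of all genes under estradiol to -0.13 and turned NRIP1 with both treatments against Ctrl to -0.034 and the CTSD interaction to 0.015. Without 1 library, uncalled values crossed 0: TFF1 under estradiol ran from -0.30 to 0.48; under CoCl2, ESR2 ran from -1.56 to 0.11, TFF1 from -0.61 to 0.018, CTSD from -0.017 to 0.18, GREB1 from -0.096 to 0.011 and CCDC170 from -0.020 to 0.30; with both against Ctrl, ESR2 ran from -0.41 to 0.88; CTSD ran from -0.030 to 0.096 with both against estradiol and from -0.16 to 0.056 in the interaction, and the ESRRA interaction from -0.0061 to 0.30. Whether the letters A to C pair the libraries is not known, and the main fits used no block. Deviations of same-lettered libraries correlated at -0.310 to 0.289, and not all above 0.1 in any comparison, which cannot exclude pairing with 3 libraries a group. With a replicate block, estradiol called 10620 genes, CoCl2 327 and both against estradiol 3791. ESRRA in the last of these passed at -0.19 (adjusted p = 0.0346, edgeR quasi-likelihood test). Of 802 refits of list genes named under estradiol or called under CoCl2 or in the interaction, chosen after seeing the data, 777 kept their call and 25 lost it, all of them FHL2, FKBP4 or NR2F2. Depth limits ESR2, TFF1 and PGR most.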
